A study of Mus musculus with 26 samples.

Results

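Thalamic neurons that project to motor cortex were compared with thalamic neurons that project to somatosensory cortex, within joint clusters of the authors' cell table. The members were the cells that the authors' cell table places in joint cluster 1 or joint cluster 2 and that carried a label from one of these targets: 433 of the 1972 cells of the series, 220 motor and 213 somatosensory. The question was which genes follow the cortical target among cells of the same joint cluster, the match of cell class used here. Cells had been labelled by retrograde transport from cortex, picked by hand from dissociated mouse thalamus and sequenced from the 3' end of the transcript, with molecules counted by unique molecular identifiers (UMIs, 1 for each captured molecule). All 8 animals were male, and no source used here gives the strain, genotype or tracer. The 5 motor animals had ages of 112, 112, 71, 69 and 69 and the 3 somatosensory animals of 64, 64 and 78, in a unit the cell table does not name.

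The ventral anterior and ventral lateral nuclei carry cerebellar and basal ganglia signals to motor cortex, and the ventral posterior nuclei carry touch and body position to somatosensory cortex; the posterior nucleus sends axons to both areas. Within these nuclei, core-type relay cells with parvalbumin and fast potassium channels are usually set apart from matrix-type cells with calbindin, which project more widely. Adhesion molecules, guidance receptors and LIM homeobox factors such as Lhx2 and Lhx9 are known from the development of thalamocortical projections.

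Raw counts were summed per animal and joint cluster wherever an animal had at least 10 cells there. This left 11 sums from 3 motor animals (replicates 3, 4 and 5) and 3 somatosensory animals (replicates 1, 2 and 3), with 13 to 105 cells each (207 motor and 204 somatosensory cells in all) and 1256561 to 8798921 UMIs. Motor replicates 1 and 2 had 9 and 4 cells in these clusters, and somatosensory replicate 1 entered with cluster 2 alone. All somatosensory cells and motor replicate 3 were of sequencing batch 2, on the same 10 plates; motor replicates 4 and 5 were of batch 3 and shared a sort date. Motor cells held 87395 UMIs at the median and somatosensory cells 106981. The clusters, built from these same counts, differed in the same direction in both targets. In cluster 1, Pvalb (parvalbumin) held 174 to 358 CPM (UMIs of the gene scaled to a common total per sum) in motor and 150 to 196 in somatosensory sums. In cluster 2 it held 0 to 2.16 and 3.03 to 10.1, and Calb1 (calbindin) reached 439 to 557 and 404 to 629 there. Calb1 was lower but present in cluster 1, at 127 to 192 CPM in motor and 135 to 141 in somatosensory sums. Summed relay neuron markers held 13563 to 15563 CPM in motor and 14974 to 15740 in somatosensory sums. GABA neuron markers held at most 0.668 and 3.68 CPM. The 12 astrocyte markers summed to 297 to 637 CPM in motor and 217 to 469 in somatosensory sums (exact permutation test over animals, two-sided p = 0.1, the smallest that 3 against 3 animals can give); Slc1a2 and Aldoc made up most of this, Aqp4 and Gfap stayed at or below 3.18 and 0.216 CPM, and 2 of the 12 were at 0 in every sum of each target.

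No gene passed the test between cells of the same cluster. Of 14651 genes tested, 0 (0%) had an adjusted p under 0.05 in edgeR's quasi-likelihood test with the cluster as a covariate. At an unadjusted p under 0.05 there were 995 genes (6.79%), of which 489 (3.34%) were higher and 506 (3.45%) lower in motor sums. Intervals bounded many of the differences: the 95% interval of the difference lay within 2-fold either way for 6271 genes (42.8%), and for 6254 (65.2%) of the 9596 genes that reached 10 CPM in a target. That fit counts the 11 sums of 6 animals as independent and has no batch term; with 1 sum per animal the interval lay within 2-fold for 6358 of 13896 genes (45.8%), and the smallest edgeR adjusted p was 0.772. In cluster 1 the median absolute log2 difference between targets, on log2(mean CPM + 1), was 0.27 over those 9596 genes, and in cluster 2 it was 0.25. Between cluster 2 and cluster 1 it was 0.49 in motor and 0.41 in somatosensory sums, although the clusters were built from these counts and so had to differ. More than 2-fold apart between targets were 618 of the 9596 genes in cluster 1 and 453 in cluster 2. Between the clusters, with the same limit on that comparison, 1827 of the 9596 were so in motor and 1198 in somatosensory sums.

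**Figure D1:**
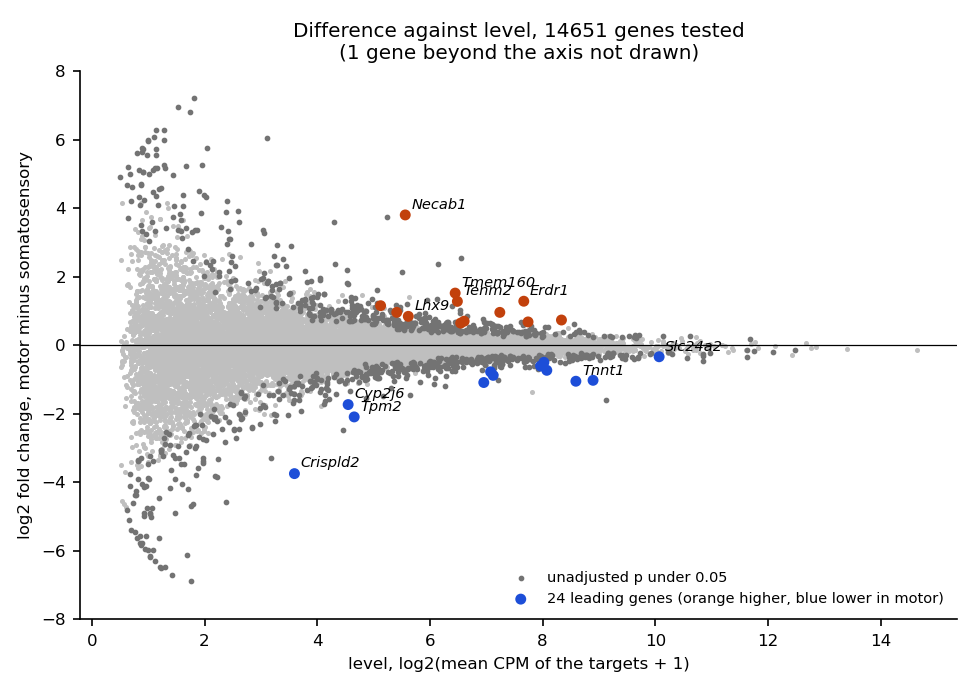
Each point is 1 of 14651 genes: the horizontal axis is log2(mean CPM of the targets + 1), the vertical axis the log2 fold change of motor minus somatosensory sums. Dark grey marks the 995 genes at an unadjusted p under 0.05 and colour the 24 leading genes described in the text; 1 gene lies beyond the axis, and the spread of the differences narrows as the level rises.

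The count of 0 changed under some alternatives. DESeq2 on the same sums called 39 genes (0.266%), 24 higher and 15 lower, and edgeR without the filter on low counts called 78 of 27065 (0.288%). With the animal as a random effect in limma, where both sums of an animal are allowed to resemble each other (consensus correlation 0.0739), 0 genes (0%) passed. Leaving out motor replicate 3 gave 11 genes (0.0822%) and leaving out somatosensory replicate 1 gave 4 (0.0286%); without cells that carried 3 or more markers of another type, only Tenm2 passed (0.00697%).

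Because no gene met the rule for naming, the genes described next were chosen after their values were seen, on this same contrast: in each direction the 12 with the smallest p among genes that reached 10 CPM and had the same sign in cluster 1, in cluster 2 and within batch 2. None of the 24 passed the edgeR test. DESeq2 called 23 of them. In 20 of the 24 the motor and somatosensory sums did not overlap in either cluster, as was so for 131 genes (0.894%) with motor higher and 119 (0.812%) with motor lower among all those tested. These counts follow from the choice and describe it.

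Tenm2 and Adgrl3 were among the genes with higher values in motor sums. Tenm2 encodes teneurin-2, a transmembrane protein of nerve endings that binds latrophilins. Its motor sums of cluster 1 held 133, 157 and 235 CPM (replicates 3, 4 and 5) and the somatosensory sums 61.8 and 81.7 (replicates 2 and 3). In cluster 2 they held 92.7, 77.7 and 61.3 against 34.9, 37.1 and 21.5 CPM. The lowest motor sum thus lay above the highest somatosensory sum in each cluster, and the log2 fold change was 1.28 ± 0.21 (SE; edgeR adjusted p = 0.097, 1.27 in cluster 1 and 1.28 in cluster 2). Adgrl3 encodes latrophilin-3, a receptor of teneurins. It held 79.6, 124 and 98.3 CPM in motor sums of cluster 1 against 58.3 and 59.9, and 117, 141 and 160 CPM in cluster 2 against 85.1, 74.9 and 99.9, again without overlap (log2 0.70 ± 0.17, edgeR adjusted p = 0.41). The other latrophilin genes had differences of the opposite sign that did not pass: Adgrl1 -0.22 ± 0.13 (edgeR adjusted p = 0.83), at 380, 334 and 293 CPM in motor sums of cluster 2 against 500, 397 and 370, and Adgrl2 -0.31 ± 0.18 (edgeR adjusted p = 0.83).

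Necab1, which encodes a neuronal EF-hand calcium-binding protein, had the widest difference of the 24. Motor sums of cluster 1 held 34.7, 39.4 and 9.02 CPM and somatosensory sums 0.396 and 1.28. In cluster 2 motor sums held 78.0, 223 and 127 CPM, against 31.6, 8.54 and 0.342 in somatosensory replicates 1, 2 and 3. The highest somatosensory sum was that of replicate 1, and no somatosensory sum reached the lowest motor sum of its cluster. The log2 fold change was 3.80 ± 0.67 (edgeR adjusted p = 0.125). Without somatosensory replicate 1, the animal with that highest sum, it was 4.86 ± 0.64 (edgeR adjusted p = 0.0066). Taking out the highest somatosensory sum widens the difference by itself, so this refit is no separate support. The 4 genes called in that refit were Avp, Erdr1, Necab1 and Man1a. Man1a held 115 CPM in the left-out replicate 1 and 0.284 to 2.98 CPM in the other somatosensory sums. Avp moved with batch: a UMI was seen in 46.8%, 7.27% and 31.9% of all motor cells of batches 1, 2 and 3. In somatosensory cells, all of batch 2, the share was 11.6%. Over all alternatives the log2 fold change of Necab1 ran from 1.94 to 4.93. A UMI of Necab1 was seen in 33.3% to 65.2% of motor cells per sum of cluster 2 and in 2.17% to 18.2% of somatosensory cells; with each cell thinned to 20000 UMIs the ranges were 21.9% to 60.9% and 2.17% to 13.6%. No cell type that should lack the gene was compared, so a background share was not measured, and in a sum fewer cells with the RNA and less RNA per cell cannot be told apart.

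Lhx9, a LIM homeobox factor of the developing thalamus, held 66.9, 89.4 and 69.8 CPM in motor sums of cluster 1 and 37.5 and 45.8 in somatosensory sums. In cluster 2 the values were 51.9, 52.3 and 41.4 against 32.3, 25.6 and 21.9 CPM. The groups did not overlap (log2 0.84 ± 0.20, edgeR adjusted p = 0.44). Ddah1, which breaks down a methylated arginine that inhibits nitric oxide synthase, held 265, 199 and 187 CPM against 110 and 111 in cluster 1. In cluster 2 it held 297, 343 and 277 against 226, 232 and 196 (log2 0.68 ± 0.14, edgeR adjusted p = 0.24). Every motor sum lay above the somatosensory sums of its cluster.

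Erdr1, a gene of the pseudoautosomal region, had the smallest adjusted p of all genes tested. It held 164, 255 and 224 CPM in motor sums of cluster 1 against 88.6 and 69.8, and 284, 403 and 388 CPM in cluster 2 against 226, 127 and 114 (log2 1.28 ± 0.19, edgeR adjusted p = 0.082). The motor replicate of batch 2 was the lowest motor sum in each cluster. The level of Erdr1 also moved with batch and system over all cells: 240 CPM in auditory, 243 in motor, 126 in prefrontal and 123 in somatosensory cells of batch 2, and 104 and 338 CPM in motor cells of batches 1 and 3. Within batch 2 alone the log2 difference of Erdr1 was 0.91 ± 0.24, with 1 motor animal.

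The other genes with higher values in motor sums were Pcsk1n (proSAAS, an inhibitor of a prohormone convertase), Stum, Khdrbs3 (an RNA-binding splicing factor), Dgat2 (the last step of triglyceride synthesis), Wwc2 and Tmem160. Their log2 differences ran from 0.65 ± 0.16 (Khdrbs3) to 1.52 ± 0.32 (Tmem160), with edgeR adjusted p from 0.137 (Pcsk1n) to 0.44. For Tmem160 the sums of motor replicate 3 (batch 2) held 58.0 and 59.4 CPM, near the 26.2 to 55.7 of the somatosensory sums, and those of motor replicates 4 and 5 (batch 3) held 116 to 227 CPM; within batch 2 alone the log2 difference was 0.43 ± 0.30.

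**Figure D2:**
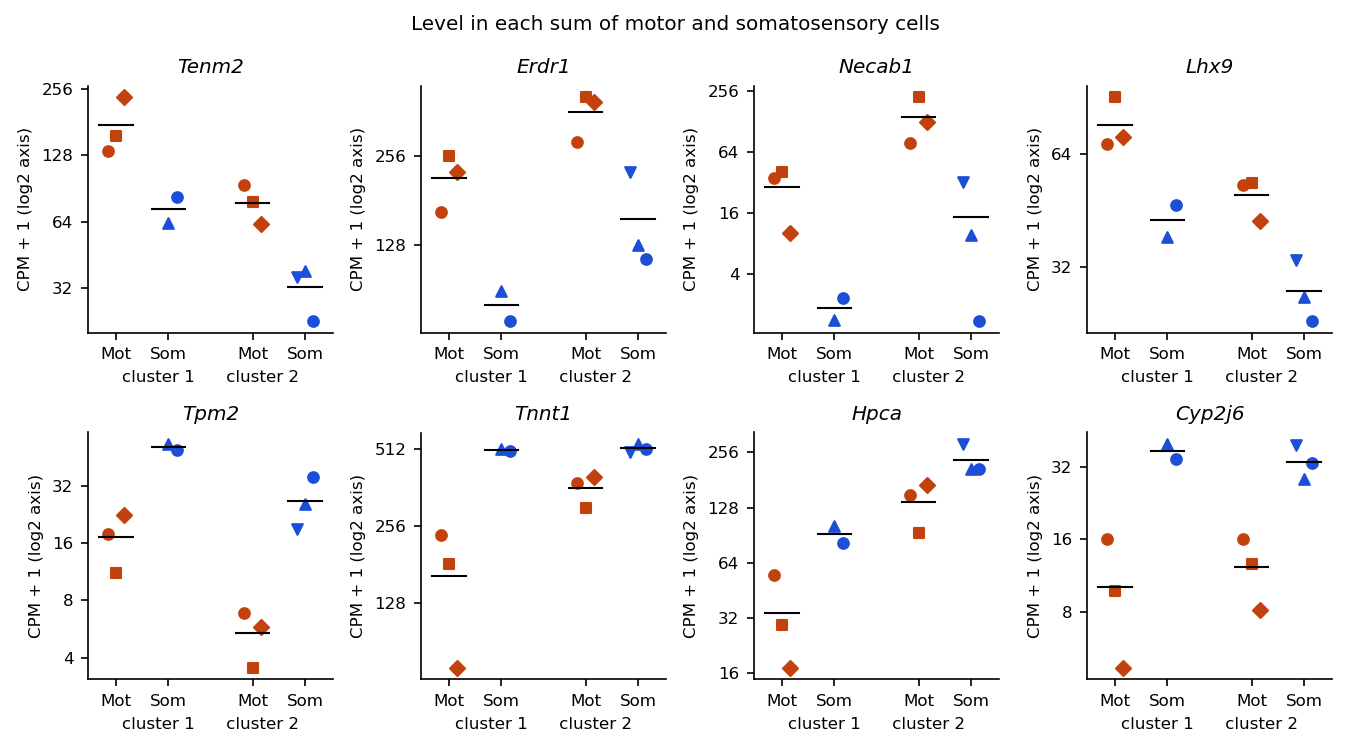
Each point is the level of 1 sum as CPM + 1 on a log2 axis, in motor (orange) and somatosensory (blue) sums of cluster 1 and cluster 2; bars are means, and circles, squares and diamonds are replicates 3, 4 and 5, down and up triangles replicates 1 and 2. Tenm2, Erdr1, Necab1 and Lhx9 (upper row) lie higher in motor sums and Tpm2, Tnnt1, Hpca and Cyp2j6 (lower row) lower, without overlap in either cluster.

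Lower in motor sums were Tpm2, Tnnt1, Hpca and 9 others, none past the test. Tpm2 encodes a tropomyosin, a protein that winds along actin filaments. Motor sums of cluster 1 held 16.9, 10.2 and 21.4 CPM against 52.3 and 48.7 in somatosensory sums. In cluster 2 they held 5.91, 2.54 and 4.77 against 17.97, 24.8 and 34.5 CPM. No motor sum reached the lowest somatosensory sum of its cluster, and the log2 difference was -2.10 ± 0.35 (edgeR adjusted p = 0.097). A Tpm2 UMI was seen in 23.1% to 52.9% of motor cells per sum of cluster 1 and in 64.6% to 73.9% of somatosensory cells, and after thinning in 7.69% to 29.4% and 41.7% to 43.5%.

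Tnnt1 encodes the slow skeletal troponin T and is strongly expressed in sensory relay nuclei of the thalamus. Its somatosensory sums were nearly level, at 496, 535 and 509 CPM in cluster 2 and 508 and 501 in cluster 1. Motor sums held 376, 300 and 397 CPM in cluster 2 and 234, 181 and 70.2 in cluster 1. All motor sums lay below all somatosensory sums. The log2 difference was -1.66 in cluster 1 alone, -0.55 in cluster 2 alone and, over both, -1.05 ± 0.24 (edgeR adjusted p = 0.38). Hpca encodes hippocalcin, a calcium sensor of neurons. It held 54.1, 28.2 and 16.04 CPM in motor sums of cluster 1 against 101 and 81.0, and 149, 91.9 and 168 CPM in cluster 2 against 284, 207 and 206 (log2 -1.09 ± 0.25, edgeR adjusted p = 0.38).

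Abhd12b, an alpha/beta hydrolase family member, held 248, 144 and 159 CPM in motor sums of cluster 1 against 522 and 343 in somatosensory sums. In cluster 2 it held 626, 384 and 376 CPM against 840, 591 and 1032, so that motor replicate 3 overlapped somatosensory replicate 2 there (log2 -1.03 ± 0.19, edgeR adjusted p = 0.137). Cyp2j6, a cytochrome P450, held 3.68 to 15.1 CPM in the 6 motor sums and 27.6 to 39.1 in the 5 somatosensory sums (log2 -1.73 ± 0.35, edgeR adjusted p = 0.24). Gas6, a secreted ligand of the TAM receptor kinases, held 282 to 313 CPM in motor sums of cluster 1 against 414 and 441, and 88.3 to 136 in cluster 2 against 147 to 176 (log2 -0.61 ± 0.13, edgeR adjusted p = 0.26). The remaining 6 were Crispld2, Necab3, Anp32a, Car7, Slc24a2 and Xylt2. Slc24a2, a potassium-dependent sodium-calcium exchanger, had the smallest difference of the 24 (log2 -0.34 ± 0.08), at 902 to 1094 CPM in motor and 1030 to 1260 CPM in somatosensory sums. Crispld2 had the widest on this side (-3.75 ± 0.77), but somatosensory values ran from 3.18 to 55.1 CPM.

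**Figure D3:**
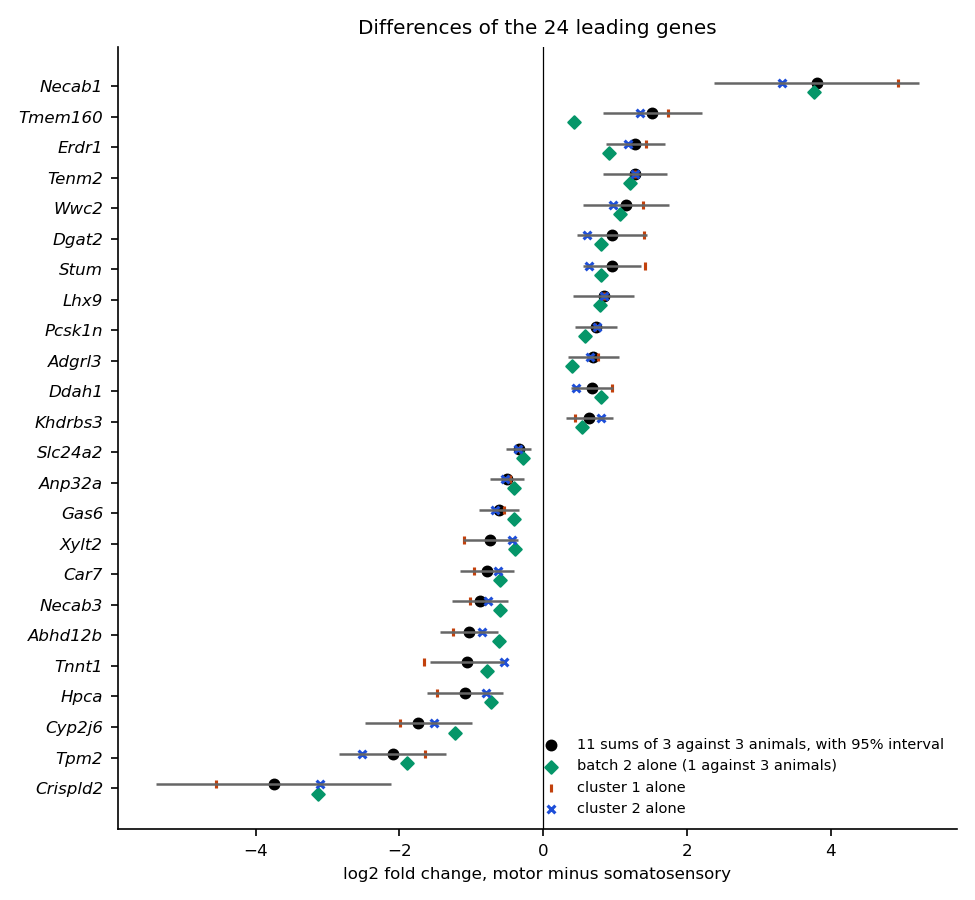
Black points and bars give the log2 fold change of motor minus somatosensory sums with its 95% interval for the 24 leading genes, from the 11 sums of 3 animals of each target; green diamonds give batch 2 alone, orange ticks cluster 1 alone and blue crosses cluster 2 alone. All values of a gene lie on one side of 0, as the choice of genes requires, and Tmem160 has the widest gap between batch 2 (0.43) and all sums (1.52).

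In GRCm38 (mm10) with GENCODE vM21, Tenm2 lies on chromosome 11, 36006656 to 37235964, minus strand, and Adgrl3 on chromosome 5, 81020138 to 81825133, plus strand. Necab1 (14952245 to 15149794), Tpm2 (43514711 to 43523765) and Hpca (129111570 to 129122036) lie on the minus strand of chromosome 4. Lhx9 lies on chromosome 1, 138825186 to 138848577, Tnnt1 on chromosome 7, 4504570 to 4516382, both on the minus strand, and Abhd12b on chromosome 12, 70154142 to 70183887, plus strand. All 8 are annotated as protein coding.

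Batch 2 allowed a comparison on shared plates, with motor replicate 3 as the only motor animal against 3 somatosensory animals. In edgeR 0 of 15853 genes (0%) passed there. Cells of both targets had been turned into cDNA together on 5 dates, with 25 to 31 motor and 29 to 66 somatosensory cells of the clusters per date. Tenm2 was higher in motor cells on 5 of 5 dates (72.0 to 130 CPM against 31.2 to 78.4), as was Necab1 (23.2 to 114 against 0.854 to 21.98) and Ddah1 (243 to 364 against 115 to 203). Tpm2 was lower in motor cells on 5 of 5 dates (4.96 to 16.3 CPM against 25.6 to 57.7), as was Tnnt1 (224 to 481 against 430 to 569). Of the 24 leading genes, 17 lay in the direction of the fit on all 5 dates, 6 on 4 and 1 (Tmem160) on 3. Unlike the fit, these values pool both clusters, and the mix differed between animals. Cluster 1 made up 22.2% of these cells in motor replicate 3. In somatosensory replicates 1, 2 and 3 it made up 16.98%, 34.8% and 51.1%. A gene that differs between the clusters can shift with this mix, and dates were not compared within a cluster. The motor cells of all dates came from 1 animal and these cells also entered the fit that chose the genes, so the dates are not independent animals. The somatosensory cells came from replicate 2 on 1 date, replicate 1 on 1 and replicate 3 on the other 3, so handling and somatosensory animal cannot be told apart between dates.

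**Figure D4:**
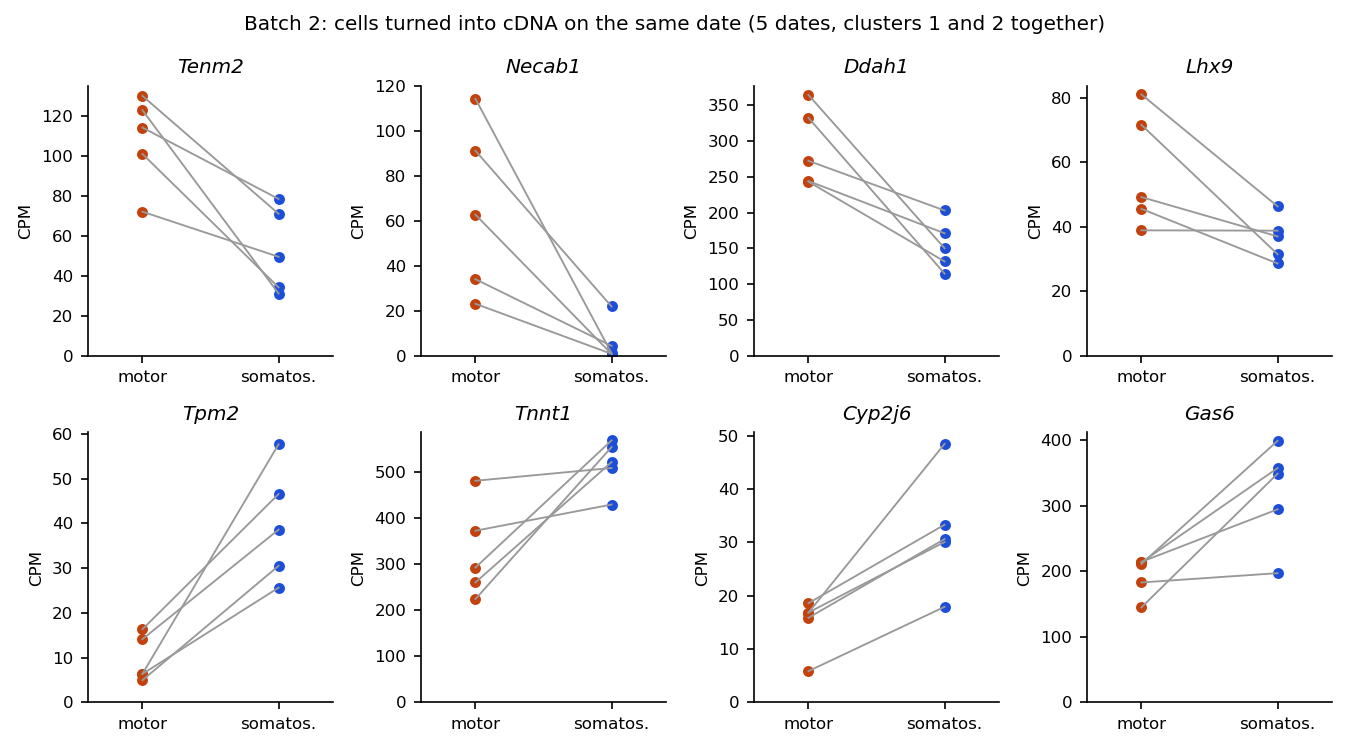
Each line joins the level (CPM, linear axis from 0) in motor replicate 3 to that in the somatosensory cells made into cDNA on the same date within batch 2, for 5 dates and both clusters together. Lines fall to the right for Tenm2, Necab1, Ddah1 and Lhx9 and rise for Tpm2, Tnnt1, Cyp2j6 and Gas6 on all 5 dates. The flattest Lhx9 line is nearly level, at 38.96 CPM in motor and 38.86 in somatosensory cells.

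Axon guidance genes, the receptors and ligands that steer growing axons, had 49 members tested. None passed in edgeR; at an unadjusted p under 0.05, 7 (14.3%) were higher in motor sums and 0 (0%) lower, against 3.34% and 3.45% of all genes tested. The median of the list was 0.03 on the log2 scale, beside -0.03 over all genes. The 7 were the ephrin receptors Epha5, Epha7 and Epha8, the semaphorin Sema3e with the semaphorin receptors Plxnc1 and Nrp1, and the netrin receptor Unc5b. Epha5 held 62.7, 57.8 and 53.8 CPM in motor sums of cluster 1 against 46.2 and 37.7, and 66.7, 86.3 and 94.7 in cluster 2 against 55.9, 41.1 and 62.9, without overlap (log2 0.54 ± 0.19, edgeR adjusted p = 0.64). Epha7 overlapped in cluster 2, where motor replicate 3 (109.0 CPM) lay just below the highest somatosensory sum (109.4). Epha5 was the only 1 of the 49 without overlap in both clusters, beside 0.894% (motor higher) and 0.812% (motor lower) of all genes tested. Sema3e overlapped in cluster 2 (14.4, 29.5 and 47.0 CPM against 20.4, 14.1 and 24.6). Nrp1 and Unc5b held at most 29.7 and 19.7 CPM in any sum. Nrp1 in motor replicate 3 (7.53 and 5.80 CPM) lay below the highest somatosensory sum (9.65). On the 5 dates of batch 2, motor cells were higher on 3 for Nrp1, 5 for Epha5 and 4 each for Epha7 and Epha8. The narrowest gap of Epha5 was nearly level, at 43.77 against 43.65 CPM.

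Synaptic organizers, the adhesion proteins that join the sides of a synapse, had 33 members tested, of which 7 (21.2%) were higher and 3 (9.09%) lower at an unadjusted p under 0.05, against 3.34% and 3.45% of all genes tested. Besides Tenm2 and Adgrl3, the higher ones included Tenm1, Tenm3, Cbln2 and Ptprf. Tenm3 overlapped in both clusters (45.9, 79.2 and 57.1 CPM against 47.0 and 55.5 in cluster 1). The teneurin Tenm4 held 153, 67.6 and 64.8 CPM in motor sums of cluster 1 against 151 and 111. In cluster 2 it held 203, 229 and 234 against 196, 185 and 192. Cbln2, a secreted cerebellin of the synaptic cleft, was seen mainly in cluster 1, at 162, 222 and 301 CPM in motor sums against 6.34 and 85.4 (log2 2.37 ± 0.68, edgeR adjusted p = 0.62). The lower ones were Lrrtm1, Lingo1 and Slitrk2. The list's median was -0.11, and the interval of 24 of its 33 members lay within 2-fold. That was so for 42.8% of all genes tested and 65.2% of those of at least 10 CPM in a target. Of 26 cadherins and protocadherins, 3 (11.5%) were higher and 2 (7.69%) lower, and of 31 contactins and immunoglobulin adhesion genes 2 (6.45%) and 3 (9.68%).

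Thalamic transcription factors had 43 members tested, 4 (9.30%) higher and 6 (13.95%) lower in motor sums at an unadjusted p under 0.05, against 3.34% and 3.45% of all genes tested. The higher ones included Gbx2 (required for thalamic differentiation), Lhx2 and Lhx9. Lhx2 held 11.9, 48.6 and 17.4 CPM in motor sums of cluster 1 against 0 and 6.24, and 7.84, 6.09 and 20.7 in cluster 2 against 0.433, 3.18 and 1.03; it is low but did not overlap (log2 2.88 ± 0.81, edgeR adjusted p = 0.62). Gbx2 held 112, 102 and 91.9 CPM against 28.1 and 44.5 in cluster 1, and overlapped in cluster 2. The lower ones were the nuclear receptors Rora and Nr2f2, Foxp1, Zfhx4, Mef2c and Id2. Nr2f2 held 128, 88.5 and 130 CPM in motor sums of cluster 1 against 175 and 212 (log2 -0.75 there), while in cluster 2 its ranges overlapped. Rora, which all relay cells express, held 1148 to 1631 CPM against 1732 and 1850 in cluster 1 and overlapped in cluster 2 (log2 -0.23 ± 0.10 over both).

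Calcium-binding proteins had 25 members tested, 3 (12%) higher and 4 (16%) lower at an unadjusted p under 0.05, against 3.34% and 3.45% of all genes tested. With Necab1, the higher ones were Calb2 (calretinin) and Vsnl1; with Tnnt1 and Hpca, the lower ones were Necab3 and Pcp4. Calb2 was seen in cluster 2, at 71.8, 97.0 and 43.0 CPM in motor sums against 27.3, 18.3 and 2.74, while every sum of cluster 1 was at or below 1.46 CPM (log2 1.81 ± 0.58, edgeR adjusted p = 0.63). Pcp4, a calmodulin regulator, differed by only -0.15 ± 0.07. The list's median was 0.00.

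**Figure D5:**
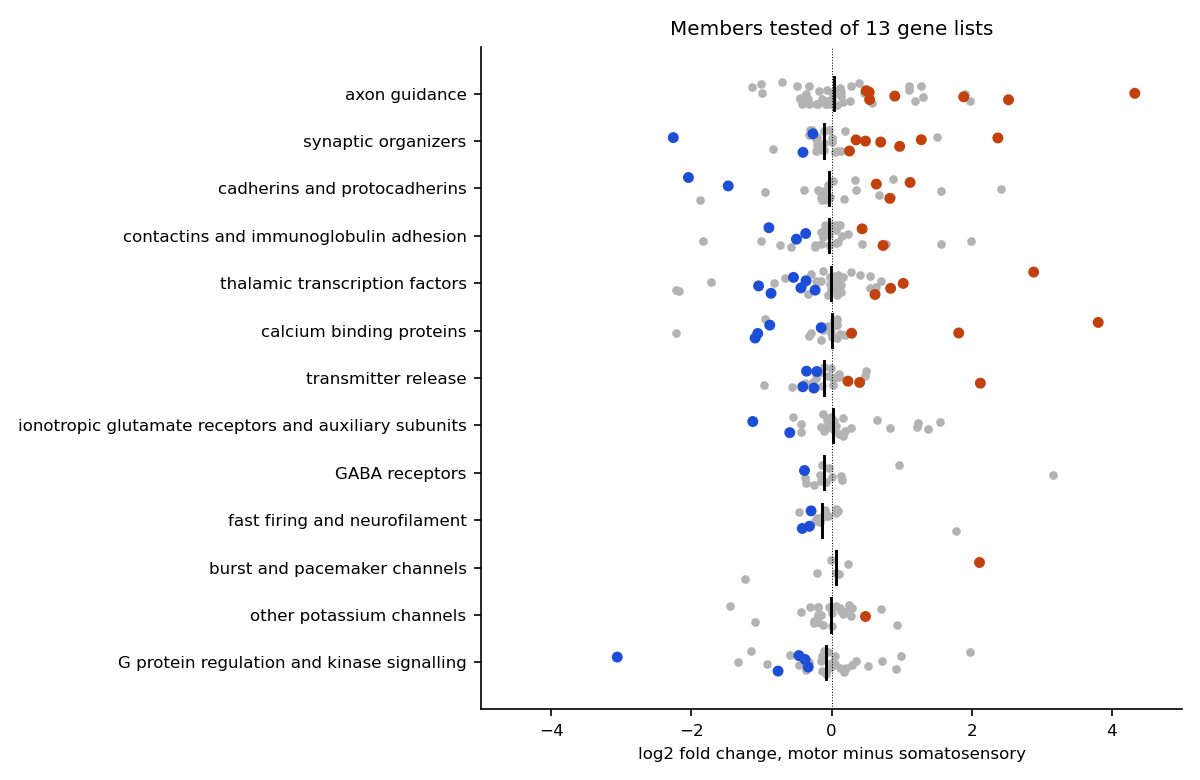
Each point is a tested member of 1 of 13 gene lists, placed by its log2 fold change of motor minus somatosensory sums; black bars are medians, orange and blue points members at an unadjusted p under 0.05, higher and lower in motor. Medians lie between -0.13 and 0.06, axon guidance has 7 orange and 0 blue points, and G protein and kinase genes have 0 orange and 5 blue points.

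Among genes of excitability, the fast-firing channels and neurofilaments come with the core-type relay cells. Of 17 fast-firing and neurofilament genes, 3 (17.6%) were lower and 0 higher at an unadjusted p under 0.05, beside 3.45% and 3.34% of all genes tested. The 3 were Kcnc1 (a fast potassium channel), Kcnab1 (a potassium channel subunit) and Nefm (neurofilament), lower by 0.29 to 0.42 on the log2 scale. The interval of 14 of the 17 lay within 2-fold, beside 42.8% of all genes tested and 65.2% of those of at least 10 CPM. Of 34 genes of G protein regulation and kinase signalling, 5 (14.7%) were lower and 0 higher at an unadjusted p under 0.05, beside 3.45% and 3.34% of all genes tested. They included the protein kinases C Prkcb and Prkcd, with Pde1c and Pitpnc1. Pde1c was near 0 throughout, at 0 to 1.02 CPM in motor and 0 to 5.85 CPM in somatosensory sums. Prkcd held 3141, 2395 and 2310 CPM in motor sums of cluster 1 against 3723 and 3512, but motor replicate 5 (3227) lay above somatosensory replicate 1 (2829) in cluster 2 (log2 -0.33 ± 0.10, edgeR adjusted p = 0.62).

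Of 25 transmitter release genes, 3 (12%) were higher and 4 (16%) lower at an unadjusted p under 0.05, against 3.34% and 3.45% of all genes tested. Slc17a6, the vesicular glutamate transporter of thalamic relay cells, held 554 to 713 CPM in motor and 480 to 648 in somatosensory sums (log2 0.23 ± 0.09). Syt2, a fast calcium sensor of release, held 56.4, 149 and 228 CPM in motor sums of cluster 1 against 17.6 and 47.5, with motor replicate 3 nearest to the somatosensory sums (log2 2.12 ± 0.66, but 0.43 ± 0.66 within batch 2). Ionotropic glutamate receptors and auxiliary subunits (27 tested) had 0 higher and 2 (7.41%) lower, GABA receptors (14) 0 and 1 (7.14%), burst and pacemaker channels (7) 1 (14.3%) and 0 and other potassium channels (26) 1 (3.85%) and 0. None of these lists held a gene that passed in edgeR after adjustment.

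Some differences lay between motor replicates of different sequencing batches. Hcrt, which encodes the hypothalamic peptide hypocretin, was at 0 in motor replicate 3 and in all somatosensory sums, and at 35.8 to 151 CPM in motor replicates 4 and 5. A Hcrt UMI was seen in 60.7% of all motor cells of batch 3, and also in 61.6% of auditory, 53.8% of prefrontal and 59.5% of visual cells of that batch, against at most 1.76% of cells of any system in batch 2. Trpc4, a cation channel, held 15.1 to 30.6 CPM in motor replicates 4 and 5 and at most 1.03 in the other sums. Over all cells of other systems Trpc4 held 13.1 CPM in auditory cells of batch 2 and 17.8 in batch 3, and 0.640 and 26.1 CPM in prefrontal cells. Both were among the 11 genes that passed in edgeR without motor replicate 3, when batch and target cannot be told apart; Tmem160, Erdr1 and Abhd12b were the members of that set among the 24.

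Whether the target difference itself depended on the cluster was tested in the 5 animals with both clusters (10 sums), with the animal as a block. In edgeR 0 of 13971 genes (0%) passed and 435 (3.11%) had an unadjusted p under 0.05; DESeq2 called 5. The smallest p values belonged to Igsf21, Pstpip1 and Chrm2 (edgeR adjusted p = 0.43 for each). Igsf21, a synaptic adhesion protein, held 17.8, 28.2 and 27.4 CPM in motor sums of cluster 1 and 0 and 0.851 in somatosensory sums, but similar ranges in cluster 2 (61.3 to 117 and 57.8 to 115). Chrm2, the M2 muscarinic receptor, held 21.7, 10.7 and 8.02 CPM in motor sums of cluster 1 against 0 and 0.142, with overlapping ranges in cluster 2. Grik1, a kainate receptor subunit, went the other way, at 5.70, 10.2 and 7.69 CPM in motor sums of cluster 1 against 53.5 and 44.4, and overlapping in cluster 2 (edgeR adjusted p = 1). For Igsf21 and Chrm2 the motor values of cluster 1 lay between the somatosensory values of cluster 1 and all values of cluster 2; for Grik1 they lay below both.

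The share of an animal's cells that fell in clusters 1 and 2 was 12.2%, 4.88%, 81.8%, 45.0% and 43.4% in motor replicates 1 to 5 and 70.7%, 95.7% and 66.7% in somatosensory replicates 1 to 3. The mean was 37.4% ± 30.7 (SD, n = 5) against 77.7% ± 15.7 (n = 3; exact permutation test, two-sided p = 0.107). Both motor animals of batch 1 were low and the ranges overlapped. Cluster 1 made up 22.2%, 36.1% and 47.2% of these cells in motor replicates 3, 4 and 5 and 16.98%, 34.8% and 51.1% in the somatosensory animals. The authors' own clusters within each system entered cluster 1 in unlike shares. Motor clusters 1, 2 and 3 held 45, 15 and 3 of its motor cells. Somatosensory clusters 1, 2 and 3 held 76, 2 and 2 of its somatosensory cells. In cluster 2, motor cluster 2 held 122 cells and somatosensory cluster 2 held 123. Whether the cell class is equal within a joint cluster was not tested. Within cluster 2 the authors' own motor cluster 4 held 31 motor cells. Without them 0 genes passed in edgeR. With all cells of both targets in any cluster, 1 sum for each of 8 animals, 0 of 15614 genes (0%) passed as well.

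The 8 cells of motor replicate 1 in cluster 2, too few for a sum in the fit, held 1101433 UMIs. There Necab1 stood at 193 CPM and Tnnt1 at 75.4, beyond the somatosensory sums of cluster 2 on the motor side, and Tenm2 at 55.4, above all 3 of them. Tpm2 stood at 22.7 CPM, inside the somatosensory range, and Erdr1 at 60.8 CPM, below every sum of either target. Hpca (234 CPM) and Adgrl3 (75.4) also lay inside their somatosensory ranges. Lhx9, Ddah1, Abhd12b, Cyp2j6 and Gas6 lay beyond theirs on the motor side. The 9 cells of somatosensory replicate 1 in cluster 1, also left out of the fit, held 2069091 UMIs. There Cyp2j6 (13.049 CPM) and Gas6 (307.86) fell inside the range of the motor sums of cluster 1. Tenm2, Adgrl3, Necab1, Lhx9, Ddah1, Erdr1, Tpm2, Tnnt1, Hpca and Abhd12b lay beyond those sums on the somatosensory side.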

How the data were processed

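Libraries of the 3' end with UMIs were made from single cells on 26 plates, per the labels' protocols; cutadapt 1.16, Picard 1.12, STAR 2.5.3 and build mm10 are named in the submitters' processing notes. No source used here states the counting rule or annotation, so UMIs of overlapping genes or close copies may be mixed. The authors deposited raw UMI counts, not normalized, with a table of cells whose animals, systems, dates and clusters were used as given; the clusters come from these same counts. Counts were summed per animal and joint cluster (10 or more cells). Spike-ins and cells without such a cluster were left out, no doublet caller was run on these hand-picked cells, and flagged cells (20) had no joint cluster. The test was that of edgeR 4.0.16 (R 4.3.3; filterByExpr, TMM factors of 0.942 to 1.04, trended dispersion, quasi-likelihood F test, 8 residual degrees of freedom, Benjamini-Hochberg at 0.05); DESeq2 1.42.0 and limma 3.58.1 were alternatives. The biological coefficient of variation was 0.538. Scripts were tested on simulated data. The members, lists, tests and naming rule (12 genes per direction past the threshold) were chosen with earlier results of these data known; that rule took 0 genes. Animals are the replicates, and both sums of an animal share their source. UMI shares cover counting error only. Results for some list members are not reported here.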

Additional observations from a re-analysis of the deposited data

How the results depend on the processing

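For the difference between targets, edgeR called 0 genes on all sums, and the count moved to 39 with DESeq2, 78 without the filter on low counts and 1 without cells that carried markers of other types. Leaving out 1 animal at a time gave 0 to 11, the highest without motor replicate 3 and 4 without somatosensory replicate 1. For the dependence on cluster the count moved from 0 to 5 with DESeq2, 14 without the filter and 3 within batch 2, and leaving out 1 animal gave 0 to 2. The cause of these moves was not tested. The other alternatives (a single dispersion, 1 sum per animal, 1 cluster, batch terms, sort dates, 5 or 20 cells per sum, no animal block for the cluster term) kept the count at 0. Of 576 pairs of a leading gene and an alternative, 576 kept the direction and 46 passed the adjusted threshold, 23 of them with DESeq2 and 17 without the filter. The choice of these genes required the same sign in cluster 1, in cluster 2 and within batch 2, which are among the alternatives. Most other alternatives refit the same cells that chose the genes, so the shared direction was largely fixed by the choice. No paired analysis was possible because animals are nested in targets and their numbers do not pair them; the cDNA dates of batch 2 pair cells of 1 motor animal, not animals, and were described without a test. Of the 2 targets compared, batch 3 held motor cells only. With 3 animals against 3, batch and target can be told apart among these sums only within batch 2, where there is 1 motor animal.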
